A study of Homo sapiens with 30 samples.

Results

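The genes described here are MYC, its DNA-binding partner MAX, the antagonists MXD1 and MXD4, and genes for nucleolar proteins, ribosome assembly factors and enzymes of polyamine and nucleotide synthesis, 40 in all. They were listed by name and not by their values. Each was read from 1 probe set, the one that was brightest on average among those annotated to that gene alone. This gave values for 34 of the 40, out of 19775 genes measured in the same way. MXD4, NOP56, DKC1, BOP1 and PPAN have only probe sets that list several symbols, 11 in all, and GNL3 is not listed in the annotation used here, so these 6 genes have no values of their own.

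LOUCY is a human cell line from an early T cell precursor acute lymphoblastic leukemia (ETP-ALL) that expresses MEF2C from a rearrangement near its own locus, in every group here. Total RNA of 10 groups was hybridised to HG-U133 Plus 2.0 arrays from Affymetrix, with 3 arrays a group. The MEF2C line carries a doxycycline (dox) inducible, codon-optimised MEF2C that lacks the β TAD domain and is followed by a blue fluorescent protein, and it was grown with and without dox either in medium or on a stroma layer, OP9-GFP or OP9-DL1, the second of which displays the Notch ligand Delta-like 1. A line with inducible MEF2C and ICN (the activated intracellular part of NOTCH1) and a line with inducible ICN alone were grown with and without dox in medium. The lines were made by lentiviral transduction and flow sorting, and OP9 cells are mouse stromal cells. LOUCY cells without a construct given dox are not analysed here, so the drug and the transgene cannot be told apart. The methods name SCF, FLT3L and IL-7 for human cocultures and do not name them for the arrays in medium, so stroma and cytokines cannot be told apart either. The labels number the arrays of a group without saying whether each is a culture of its own, so the p-values here rest on array-to-array spread that may be technical.

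Ribosomes are assembled in the nucleolus, where RNA polymerase I makes the precursor of ribosomal RNA, small nucleolar RNA particles modify it, and large sets of assembly factors cut and fold it into the small and large subunits. MYC and its relative MYCN, each paired with MAX, bind the E-box sequence CACGTG and are known to raise transcription of many of these genes together with enzymes that make polyamines and nucleotides. MXD proteins pair with MAX as well and act as repressors at the same sequences, and in T cell leukemia MYC is a known target of NOTCH1.

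Values are log2 expression after RMA (robust multichip average) and ran from 1.40 to 13.93, with array medians of 4.75 to 4.84. Arrays of a group correlated at 0.990 to 0.998. DTX1, a Notch target, was higher by 2.31 with dox in the ICN line and by 2.78 in the MEF2C and ICN line. HES1, another Notch target, was already 4.61 higher in the ICN line and 3.75 higher in the MEF2C and ICN line than in the MEF2C line, all without dox. With dox HES1 rose by 0.40 in the ICN line and by 1.57 in the MEF2C and ICN line. In the same order HES4 gave 0.39 (limma adjusted p = 0.68) and 1.34 (adjusted p = 0.043). NRARP gave -0.30 (adjusted p = 0.063) and -0.11 (adjusted p = 0.60). The brighter NOTCH3 probe set gave 0.08 (adjusted p = 0.54) and 0.15 (adjusted p = 0.18), and the other rose by 1.54 with ICN (adjusted p = 9.3e-10). Of 3 MEF2C probe sets in the MEF2C line 1 was higher with dox, by 0.53 without stroma, 1.23 on OP9-GFP stroma and 0.63 on OP9-DL1 stroma, while the other two were lower, by 1.08 and 1.04 in medium. The study places all but a single MEF2C probe set outside the cloned cDNA. Of T lineage markers CD3D, LCK and PTPRC were bright, and CD2 and KIT were dim. In RNA from whole cultures fewer cells of a kind and less RNA per cell cannot be told apart.

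The promoter windows of these genes carried the E-box more often than promoters at large. RefSeq windows of build GRCh38.p14, from 250 bases before to 50 bases after the start, were matched for 33 of the 40 genes. CACGTG, which reads the same on both strands, was present in 13 of these 33 (39.4%), against 7.26% of all 35116 promoters and 8.9% of the 15384 promoters of genes on the arrays. In 11 of the 13 it began within 35 bases of the start. The core of the RBPJ motif, TGGGAA on either strand, was present in 24.2% of the members and in 24.0% of all promoters. A match is a description of the letters and no measure of binding. Genes known to be raised by MYC were among those listed, so a higher share follows in part from the choice of genes.

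The windows around the E-box of 5 genes are printed 5′ to 3′ on the gene's strand, with the E-box in capitals, because these genes had the largest differences on stroma (UTP20, PNO1, NOP2) or with ICN (PUS7, SRM) among those that hold it. The motif began 10 bases before the start in UTP20 (chr12:101280083-101280112, plus strand) and 199 bases before it in SRM (chr1:11060200-11060229, minus strand). It began 9 bases after the start in PNO1 (chr2:68157885-68157914, plus strand), 28 bases after it in PUS7 (chr7:105522226-105522255, minus strand) and 35 bases after it in NOP2 (chr12:6568242-6568268, minus strand).
UTP20: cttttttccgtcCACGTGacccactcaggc
SRM: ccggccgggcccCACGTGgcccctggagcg
PNO1: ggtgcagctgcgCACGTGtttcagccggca
PUS7: gtcgctgcgccgCACGTGtgcgagcccggc
NOP2: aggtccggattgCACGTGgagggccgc

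MYC itself lay at the bottom of the scale in all 30 arrays. Its probe set ran from 2.58 to 3.30 with a mean of 2.94, and 12.8% of genes had a lower mean. Group means ran from 2.80 in the ICN line without dox to 3.15 in the MEF2C line on OP9-GFP without dox, and MYC passed the test in none of the 17 comparisons made with limma. A fall from this level could hardly be seen on the array. Its relative MYCN, taken from the list of other MYC network genes, was bright, with a mean of 9.93.

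MYCN fell with ICN. It had values of 8.17, 8.07 and 7.99 in the ICN line with dox, against 10.12, 10.08 and 9.97 without. In the MEF2C and ICN line it had 9.47, 9.46 and 9.37 with dox, against 9.86, 9.85 and 9.78 without. The groups did not overlap in either line, and the fall was by far the larger in the ICN line. Of all genes 18.9% were lower without overlap with ICN and 19.4% with MEF2C and ICN. The log2 difference was -1.98 (SE 0.07, limma adjusted p = 4.8e-17) with ICN and -0.40 (SE 0.07, adjusted p = 0.00011) with MEF2C and ICN, and the effects of dox differed by 1.58 (SE 0.10, adjusted p = 5.7e-12). Of 10 MYCN probe sets 2 had a mean of 5 or more. Both fell with ICN, and 1 of them fell with MEF2C and ICN.

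With MEF2C alone MYCN went the other way in medium. It had 10.45, 10.60 and 10.50 with dox in medium, against 10.05, 10.14 and 10.07 without, a rise of 0.43 (SE 0.07, adjusted p = 0.00011). On OP9-DL1 it rose by 0.30 (adjusted p = 0.0073). On OP9-GFP the difference was -0.13 (adjusted p = 0.34), and the effect of MEF2C on OP9-GFP was lower than that in medium by 0.56 (SE 0.10, adjusted p = 0.0045).

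MAX, the partner of MYC and MYCN, rose with ICN. It had 11.19, 11.23 and 11.25 in the ICN line with dox, against 10.85, 10.73 and 10.72 without, and 11.22, 11.05 and 11.09 in the MEF2C and ICN line with dox, against 10.70, 10.66 and 10.63 without. All induced arrays lay above all uninduced ones, as in 12.7% of all genes with ICN and 16.2% with MEF2C and ICN. The log2 differences were 0.45 (SE 0.06, adjusted p = 9.6e-06) and 0.46 (SE 0.06, adjusted p = 5.3e-06). MXD1, which competes for MAX, had 6.76, 6.62 and 6.53 in the ICN line with dox, against 6.41, 6.21 and 6.19 without, a rise of 0.37 (SE 0.10, adjusted p = 0.016). In the MEF2C and ICN line the difference for MXD1 was 0.25 (adjusted p = 0.11), and MEF2C alone gave -0.03 to -0.31 for it over the 3 cultures with no call.

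**Figure D1:**
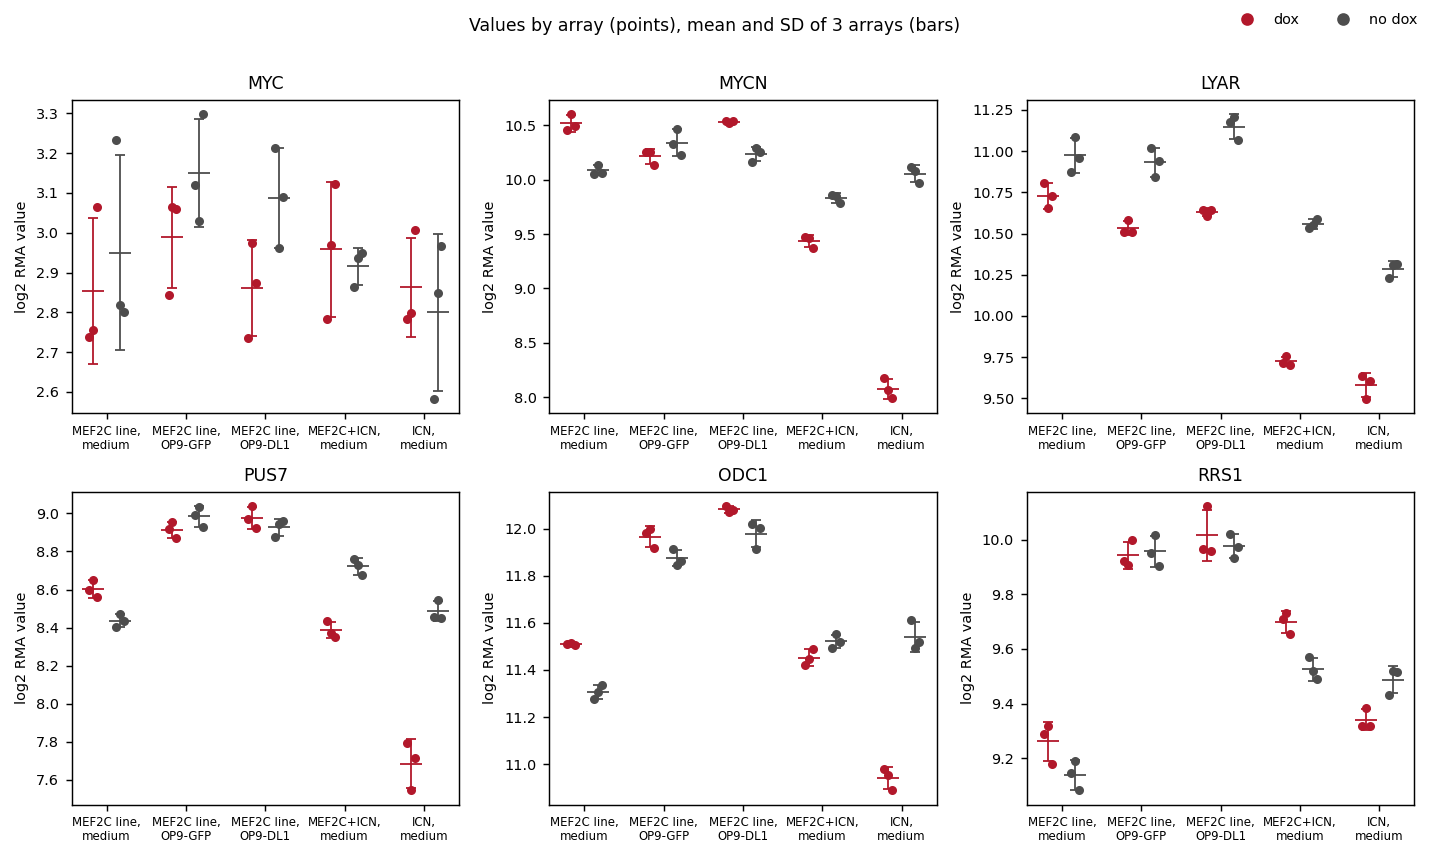
Log2 values by array (points) with the mean and SD of 3 arrays (bars) for MYC, MYCN, LYAR, PUS7, ODC1 and RRS1, by line and culture, with dox in red and without dox in grey. MYC stays between 2.58 and 3.30, and MYCN lies at 7.99 to 8.17 in the ICN line with dox.

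Induction of ICN lowered a part of the set. By role, 3 of 4 polyamine and nucleotide enzymes and 4 of 6 nucleolar genes fell. Of the assembly factors 3 of 11 for the large subunit and 1 of 6 for the small subunit fell. Of the 34 genes 13 fell and 2 rose (limma, adjusted p under 0.05 over 54613 probe sets), against 9.42% of all genes that fell and 6.44% that rose. Among genes with a mean of 8 or more 18% fell. The median log2 difference of the 34 was -0.18, against -0.03 for all genes, and 30 of 34 were negative. The 2 that rose were MAX and MXD1.

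Among nucleolar proteins the fall was largest for LYAR, a nucleolar zinc-finger protein that acts in the processing of ribosomal RNA. LYAR had 9.64, 9.50 and 9.60 in the ICN line with dox, against 10.23, 10.31 and 10.32 without. The groups were wide apart, with a difference of -0.71 (SE 0.06, adjusted p = 6.8e-09). NOLC1, a chaperone of small nucleolar RNA particles, fell by 0.23 (adjusted p = 0.0033), the methyltransferase FBL fell by 0.18 (adjusted p = 0.027) and NPM1, a nucleolar histone chaperone, fell by 0.18 (adjusted p = 0.020).

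Of 11 measured assembly factors of the large subunit 3 fell, and of 6 of the small subunit 1 fell. WDR12, which forms a complex with PES1 and BOP1, fell by 0.40 (SE 0.06, adjusted p = 1.8e-05). NOP16 had 7.81, 7.74 and 7.75 with dox in the ICN line, against 8.18, 8.11 and 8.14 without, a fall of 0.38 (SE 0.06, adjusted p = 3e-05) with no overlap. WDR74 fell by 0.29 (adjusted p = 0.031). The small subunit factor was PNO1, at -0.20 (adjusted p = 0.036).

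Enzymes of RNA modification and polyamine synthesis were among the genes that moved most. PUS7, a pseudouridine synthase that modifies RNA, had 7.79, 7.54 and 7.72 in the ICN line with dox, against 8.46, 8.55 and 8.45 without, a difference of -0.80 (SE 0.06, adjusted p = 3.2e-10). ODC1, the rate-limiting enzyme of polyamine synthesis, had 10.98, 10.95 and 10.89 with dox, against 11.61, 11.49 and 11.52 without, a difference of -0.60 (SE 0.05, adjusted p = 2.5e-09). Neither gene had any overlap between the groups, and 18.9% of all genes were lower without overlap. SRM, the spermidine synthase of the same pathway, had 8.76, 8.70 and 8.90 with dox, against 9.31, 9.30 and 9.25 without, and fell by 0.50 (SE 0.08, adjusted p = 0.00011). IMPDH2, an enzyme of guanine nucleotide synthesis, fell by 0.35 (adjusted p = 0.0002), and POLR1B, a core subunit of RNA polymerase I, fell by 0.24 (adjusted p = 0.038).

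Lists of further genes are given beside the 9.42% of all genes and 18% of genes with a mean of 8 or more that fell. Of 30 other genes for nucleotide and polyamine synthesis 16 fell and 3 rose with ICN (median -0.22), led by IMPDH1 at -0.65, NME1 at -0.64 and AMD1, the S-adenosylmethionine decarboxylase that supplies the aminopropyl groups of polyamines, at -0.46. Of 26 chaperones and mitochondrial genes known to lie under MYC 15 fell and 0 rose (median -0.20), with PPARGC1B at -0.86. Of 40 other small subunit processome genes 11 fell and 0 rose (median -0.08), and of 43 large subunit genes 6 fell and 2 rose (median -0.10), the second a share below that of genes with a mean of 8 or more. Of 20 genes of RNA polymerase I and its factors 4 fell and 1 rose (median -0.10). Of 19 genes of RNA polymerase III and its factors 4 fell and 0 rose (median -0.09). Of 13 snoRNA particle proteins 3 fell and 1 rose (median -0.09). These shares were near the 18% of genes with a mean of 8 or more. Of 52 ribosomal proteins 0 fell and 1 rose, RPL36A at 0.43. Proliferation genes did not follow, as 7 of 24 rose and 0 fell, with RRM2 at 0.57 and MKI67 at 0.35.

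With only the 6 arrays of the ICN line in the fit, 6 of the 34 members fell. In the fit over all 30 arrays 3 fell at the thresholds of the study's methods (a log2 change beyond 0.6, p under 0.05 and q under 0.1). The count that rose was 1 without replicate 2 or 3 of the uninduced arrays or replicate 1 of the induced ones.

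Fewer members passed the test when MEF2C was induced together with ICN. Of the 34 genes 3 fell and 1 rose, against 10.9% of all genes that fell and 5.84% that rose, and the median was 0.02. Of genes with a mean of 8 or more 18.2% fell and 9.67% rose, so the members that fell were no more than the background share. LYAR fell in this line too, with 9.71, 9.76 and 9.70 with dox, against 10.53, 10.55 and 10.59 without, a difference of -0.83 (SE 0.06, adjusted p = 1.6e-10). PUS7 had 8.44, 8.37 and 8.35 with dox, against 8.76, 8.73 and 8.67 without, a smaller fall of 0.33 (SE 0.06, adjusted p = 0.00027). NOC3L, a large subunit factor, fell by 0.24 (adjusted p = 0.0056), and MAX rose. ODC1 had 11.42, 11.45 and 11.49 with dox, against 11.49, 11.55 and 11.52 without, groups that nearly touch, with a difference of -0.07.

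The test of the difference in the effect of dox, MEF2C and ICN line minus ICN line, was passed by 8 members. In each the effect was higher in the MEF2C and ICN line, which is not the same as a higher level. Of all genes 4.06% had a higher effect and 6.08% a lower one, and of genes with a mean of 8 or more 7.39% and 9.27%. The 8 members were ODC1 at 0.53 (SE 0.07, adjusted p = 1.1e-05), PUS7 at 0.47, SRM at 0.44, IMPDH2 at 0.35, RRS1 at 0.32, NOLC1 at 0.31, WDR12 at 0.29 and NOP16 at 0.28. The median over the members was 0.23, against 0.04 for all genes. The count was 13 when probe sets with a mean under 5 were left out or with a trended, robust variance prior, and 4 with arrays centred on the median or with only the arrays compared. It was 5 without replicate 2 of the MEF2C and ICN line without dox, without replicate 1 of that line with dox, or without replicate 2 of the ICN line with dox. The lines also differ without dox, in LYAR and PUS7 among others, so a property of the line and the added MEF2C cannot be told apart.

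**Figure D2:**
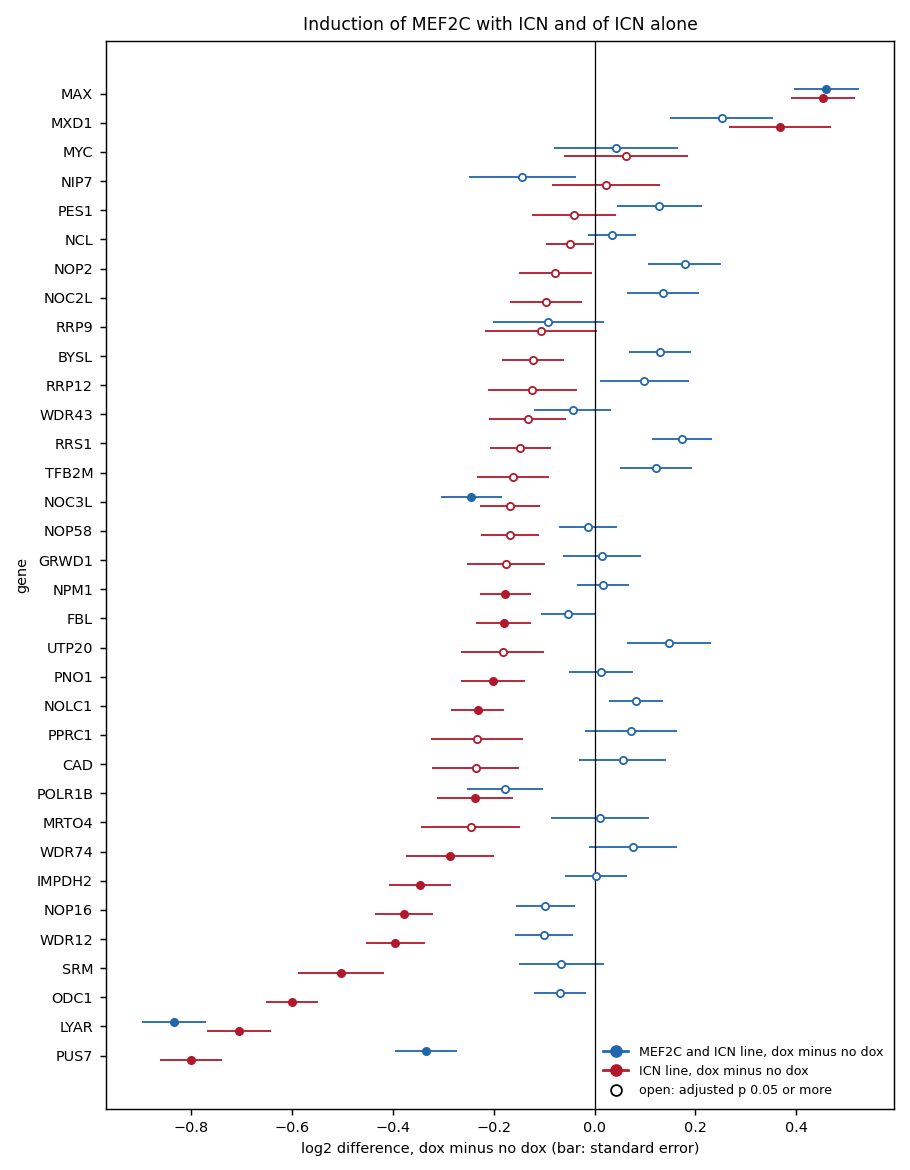
Log2 difference, dox minus no dox, of each of the 34 genes in the MEF2C and ICN line (blue, upper of each pair) and in the ICN line (red, lower), with standard errors. Filled points passed an adjusted p under 0.05, which 13 genes did downward with ICN and 3 with MEF2C and ICN.

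MEF2C alone moved few of these genes. In medium 3 of 34 rose and 1 fell, against 5.03% and 3.58% of all genes, and the median was 0.08. Of genes with a mean of 8 or more 8.61% rose and 6.88% fell, so the share of members that rose was near that of such genes. NOP2, a methyltransferase of ribosomal RNA, had 8.21, 8.13 and 8.17 with dox, against 7.72, 7.98 and 7.82 without, a rise of 0.33 (SE 0.07, adjusted p = 0.0038). ODC1 had 11.51, 11.51 and 11.51 with dox, against 11.28, 11.30 and 11.34 without, a rise of 0.20 (SE 0.05, adjusted p = 0.014). NOP16 had 8.17, 8.10 and 8.07 with dox, against 7.91, 7.87 and 7.98 without, and rose by 0.20 (adjusted p = 0.041). In each of these genes all induced arrays lay above all uninduced ones, as in 13.4% of all genes. None of the calls was made with only the 6 arrays compared in the fit. The count of genes that rose was 1 without replicate 1 of the uninduced arrays.

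LYAR was the exception and fell with MEF2C in every culture. Over the 9 arrays with dox it ran from 10.51 through a median of 10.64 to 10.81, and over the 9 without from 10.84 through 11.02 to 11.21, so that no array with dox reached the lowest one without. The differences were -0.25 without stroma (SE 0.06, adjusted p = 0.018), -0.40 on OP9-GFP (adjusted p = 0.00014), -0.52 on OP9-DL1 (adjusted p = 3.6e-06) and -0.39 over the 3 cultures (SE 0.06, adjusted p = 0.00013). With only the arrays compared in the fit the adjusted p was 0.25 without stroma, 0.072 with OP9-GFP and 0.0065 with OP9-DL1, and with arrays centred on the median it was 0.076 in medium, so that the calls in medium and on OP9-GFP rest on the fit over all arrays. In medium the call was also lost without replicate 2 of the uninduced arrays and without replicate 2 or 3 of the induced ones. LYAR also fell by 0.71 with dox in the ICN line, which carries no MEF2C construct (limma adjusted p = 6.8e-09). The drug and the transgene cannot be told apart in any of these falls.

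On OP9-GFP 2 members fell with MEF2C and 0 rose (4.58% and 3.03% of all genes), LYAR and the polymerase subunit POLR1B. Of genes with a mean of 8 or more 8.98% fell and 5.02% rose. POLR1B gave -0.30 (SE 0.08, adjusted p = 0.014), and 5 members had an unadjusted p under 0.05. The count was 1 without replicate 2 with dox or replicate 2 without dox. On OP9-DL1 LYAR alone fell and 0 rose (3.33% and 2.57% of all genes), with 4 members at an unadjusted p under 0.05. Over the 3 cultures together LYAR fell and 0 members rose (3.79% and 3.4% of all genes), with 3 at an unadjusted p under 0.05. The effect of MEF2C on OP9-GFP minus that in medium was called for 0 members by limma (0.101% of all genes higher, 0.389% lower), and 6 had an unadjusted p under 0.05. For OP9-DL1 minus OP9-GFP it was again 0 (0.0556% higher, 0.0759% lower), with 2 at an unadjusted p under 0.05. These tests do not show that the effects were alike.

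The effect of dox in the MEF2C and ICN line differed from that in the MEF2C line in medium for 6 members. In the first minus the second 1 member was higher and 5 were lower, against 2.94% and 7.53% of all genes. Of genes with a mean of 8 or more 4.43% were higher and 11.8% lower, near the shares of the members. MAX was higher by 0.41 (SE 0.09, adjusted p = 0.003). LYAR at -0.59, PUS7 at -0.50, NOC3L at -0.37, NOP16 at -0.29 and ODC1 at -0.27 were lower. The count of lower members was 3 with only the arrays compared.

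Coculture gave the broadest shift of the set. On OP9-GFP without dox 25 of 34 genes were higher than in medium and 1 was lower, against 10.8% and 11.5% of all genes, and 21.6% of genes with a mean of 8 or more were higher. The median was 0.35, against -0.01 for all genes. All 6 measured small subunit factors rose. Of the 12 members measured that hold an E-box 11 rose (median 0.43), and of the 16 whose window holds none 10 rose (median 0.31). With dox 7 of the 12 and 7 of the 16 rose (medians 0.32 and 0.19), and with ICN 4 of the 12 and 7 of the 16 fell (medians -0.17 and -0.20).

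Among small subunit factors UTP20, a scaffold of the processome, had 8.96, 8.76 and 9.16 on OP9-GFP without dox, against 8.24, 8.20 and 8.30 in medium. PNO1, which acts in the last cut of small subunit RNA, had 9.01, 8.79 and 8.76, against 8.12, 8.26 and 8.18 in medium. In both every array on stroma lay above every array in medium, with rises of 0.71 (SE 0.08, adjusted p = 5.8e-07) and 0.67 (SE 0.06, adjusted p = 2.7e-08). Of all genes 13.9% were higher on OP9-GFP without overlap.

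Among large subunit factors RRS1, which brings 5S RNA into the particle, had 9.95, 10.02 and 9.90 on OP9-GFP, against 9.15, 9.19 and 9.08 in medium, a rise of 0.82 (SE 0.06, adjusted p = 3.1e-10). NOP2 had 8.53, 8.56 and 8.53, against 7.72, 7.98 and 7.82 in medium, a rise of 0.70 (SE 0.07, adjusted p = 9e-08). NIP7 had 8.58, 8.35 and 8.44, against 7.86, 7.87 and 7.65 in medium, a rise of 0.66 (SE 0.11, adjusted p = 5.6e-05). No array on stroma overlapped with medium in these 3 genes, and 13.9% of all genes were higher without overlap. NOP16 rose by 0.65, and ODC1 and PUS7 rose by 0.57 and 0.55. IMPDH2 was the gene that fell, at -0.22 (SE 0.06, adjusted p = 0.010), a call lost without replicate 3 in medium, and MYC, MAX and MXD1 gave 0.20, 0.02 and 0.18 with no call.

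With dox the same comparison rests on other arrays, and 16 members were higher on OP9-GFP and 2 lower, against 7.64% and 13% of all genes (median 0.20), and 15% of genes with a mean of 8 or more were higher. PNO1 at 0.72, RRS1 at 0.68, MRTO4 at 0.64, UTP20 at 0.59 and NIP7 at 0.57 had the largest rises, and IMPDH2 at -0.28 and LYAR at -0.20 fell, of which 1 was called without replicate 1 or 3 of either group. RRS1 had 9.92, 9.91 and 9.998 on OP9-GFP with dox, against 9.29, 9.32 and 9.18 in medium with dox, again without overlap. Of all genes 16.3% were higher there without overlap.

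On OP9-GFP without dox ribosome assembly genes were called higher more often than lower, and the proteins of the ribosome itself were called lower or not at all. Of all genes 10.8% rose and 11.5% fell in this comparison, and of genes with a mean of 8 or more 21.6% rose and 18.7% fell. Of 40 other small subunit processome genes 25 rose and 0 fell on OP9-GFP without dox (median 0.24), with UTP14A at 1.08, NOP14 at 0.72 and TSR1 at 0.58. Of 43 other large subunit assembly genes 22 rose and 1 fell (median 0.25), with RRP15 at 0.66 and RSL24D1 at -0.70. Of 20 genes of RNA polymerase I and its factors 10 rose and 2 fell, with the catalytic subunit POLR1A at 0.70 and the rDNA factor UBTF at 0.51. Of 13 snoRNA particle proteins 7 rose and 0 fell. Of 52 ribosomal proteins 0 rose and 18 fell (median -0.13), with RPL27A at -0.43 and RPS25 at -0.35. With dox 3 of the 52 fell and 0 rose (median -0.07), a share below the 13% of all genes that fell. Of the small subunit list 17 rose and 2 fell with dox (median 0.16), and of the large subunit list 12 rose and 1 fell (median 0.12). Of genes with a mean of 8 or more 15% rose and 21.3% fell with dox.

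Proliferation genes showed no common direction, as 4 of 24 rose and 7 fell on OP9-GFP without dox. Of 15 other MYC network genes 3 rose and 6 fell without dox (median 0.01), and 0 rose and 8 fell with dox (median -0.24). Without dox MXI1, another MAX partner of the repressing kind, gave the largest fall of these, at -0.72 (adjusted p = 1.5e-08), followed by MXD3 at -0.58, and MYCN rose by 0.26 (adjusted p = 0.0083). With dox MXI1 gave -0.59 and MYCN -0.30 (adjusted p = 0.0021).

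The summed level of 24 stromal markers was 5296 to 7011 on OP9-GFP without dox, against 4951 to 5231 in medium. With dox it was 4638 to 4873 on OP9-GFP, against 4323 to 4568 in medium. VIM, bright in medium as well, makes up most of this sum, and the MEF2C and ICN line and the ICN line had 6117 to 6904 without dox in medium, with no stroma. Over the 23 markers other than VIM the sum was 1243 to 1360 on OP9-GFP without dox, against 1309 to 1434 in medium, and 992 to 1050 with dox, against 1143 to 1162 in medium. Without dox COL1A2 (0.80), COL6A3 (0.72) and VIM (0.34) rose and COL5A1 (-0.53), FBN1 (-0.46), SPARC (-0.33) and DCN (-0.28) fell. With dox 2 rose and 4 fell. The highest values on any array were 12.48 for VIM, 9.44 for SPARC, 7.80 for COL5A2, 7.64 for COL1A1 and 7.41 for COL6A3. The lowest maximum of a stromal marker was 2.29, for LUM. These probes are designed for human RNA, and a part of mouse RNA in the rise of the members was not tested. With only the 6 arrays compared in the fit 11 members were higher without dox, and 6 were higher at the thresholds of the methods.

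**Figure D3:**
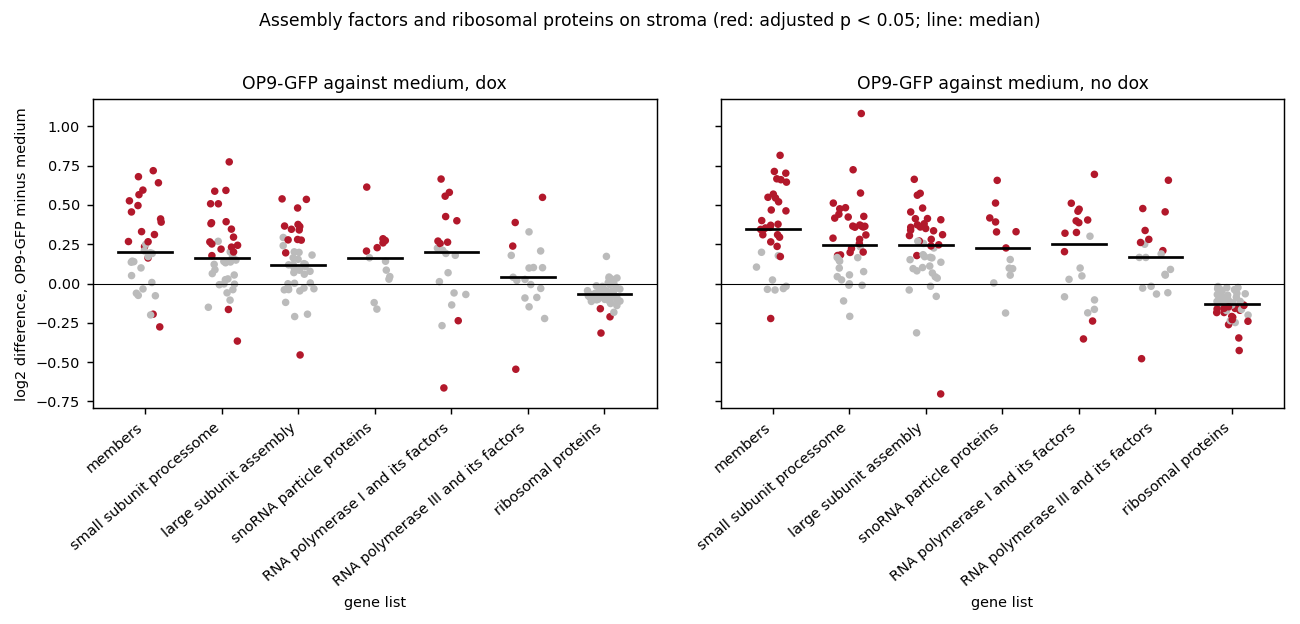
Log2 difference, OP9-GFP minus medium, of each gene of the set and of 6 lists of other genes, with dox (left) and without (right). Red points passed an adjusted p under 0.05 and black lines are medians, which lie at 0.35 for the set and at -0.13 for ribosomal proteins without dox.

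The Notch ligand on the stroma added little to the set that the test could call. OP9-DL1 against OP9-GFP gave 0 calls among the 34 genes by limma, without dox (1.02% of all genes higher, 0.612% lower) and with dox (0.92% higher, 0.48% lower), and 7 and 6 members had an unadjusted p under 0.05. With alternative settings 0 to 2 members were called higher without dox and 0 to 1 with dox. With dox 17 members had every OP9-DL1 array above every OP9-GFP array and 0 the reverse, against 11.8% and 9.14% of all genes, but the median difference was 0.08 and the largest 0.18. RRS1 had 9.96, 10.12 and 9.96 on OP9-DL1 with dox, against 9.92, 9.91 and 9.998 on OP9-GFP with dox, which overlap. HES1 rose from OP9-GFP to OP9-DL1 by 3.19 with dox and by 1.89 without. MYCN, outside the set, rose by 0.32 with dox (SE 0.07, limma adjusted p = 0.013) and gave -0.11 without (adjusted p = 0.59).

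Without dox both lines with ICN had higher levels of the set than the MEF2C line in medium. The comparisons share their 3 reference arrays with each other and with the stroma comparison without dox, so they are not independent of it. In the MEF2C and ICN line 17 members were higher and 3 lower, against 12% and 11.9% of all genes (median 0.19), and 22.3% of genes with a mean of 8 or more were higher. In the ICN line 16 were higher and 3 lower, against 12.9% and 12.3% of all genes (median 0.21), and 23.5% of genes with a mean of 8 or more were higher. TFB2M, a mitochondrial transcription factor, at 0.46 and PNO1 at 0.46 led in the MEF2C and ICN line, and PPRC1, a coactivator of mitochondrial biogenesis, at 0.59 and NOP2 at 0.57 led in the ICN line.

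LYAR, IMPDH2 and WDR12 were lower in both lines. LYAR had 10.53, 10.55 and 10.59 in the MEF2C and ICN line and 10.23, 10.31 and 10.32 in the ICN line, against 10.88, 11.09 and 10.96 in the MEF2C line. The ICN line lay lowest with no overlap, at -0.69 (SE 0.06, adjusted p = 1.1e-08) from the MEF2C line. Of all genes 20.2% were lower in the ICN line than in the MEF2C line without overlap. PNO1 has 3 probe sets, and in the ICN line against the MEF2C line 1 rose and 1 fell, so its call there depends on the probe set. TFB2M in the ICN line and WDR12 in the MEF2C and ICN line changed direction when all probe sets of a gene were averaged, to -0.0251 and 0.0114.

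The MEF2C and ICN line against the ICN line, without dox, had 2 members higher and 2 lower, against 3.73% and 5.15% of all genes. Of genes with a mean of 8 or more 5.97% were higher and 7.21% lower, near the shares of the members. LYAR was higher by 0.27 and PUS7 by 0.24, and MXD1 was lower by 0.39 and PPRC1 by 0.36. With only the 6 arrays compared in the fit 0 were higher and 1 was lower, and leaving out 1 array gave 1 to 2 higher and 0 to 2 lower, which fell below these counts without replicate 1 or 2 of the MEF2C and ICN line or replicate 1 or 3 of the ICN line.

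**Figure D4:**
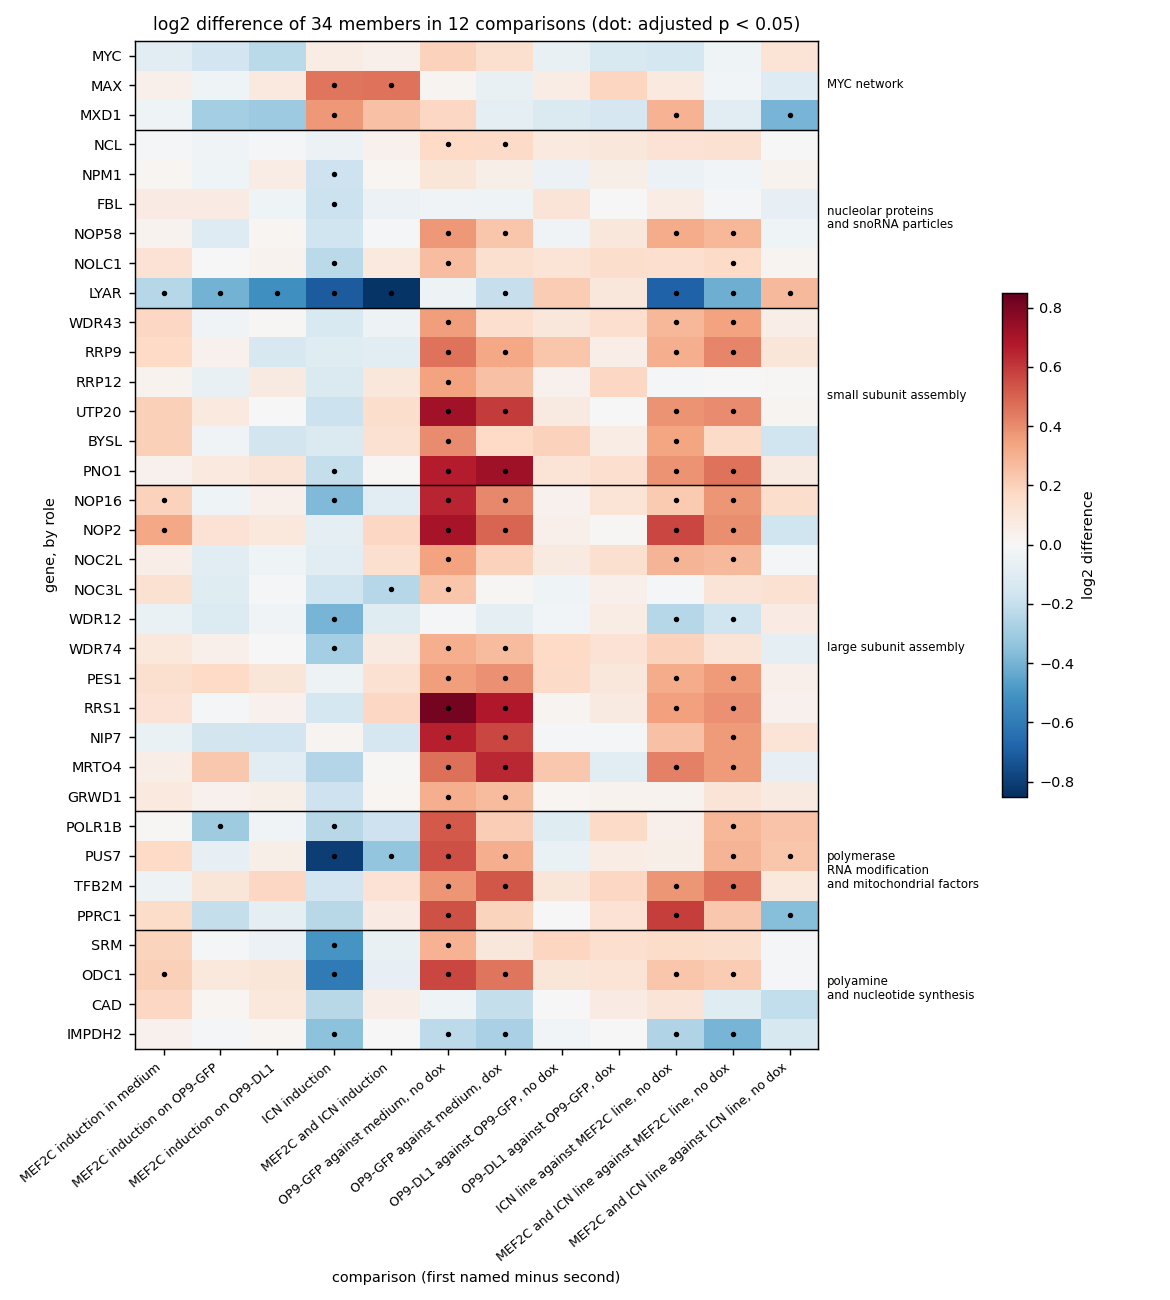
Log2 difference (colour) of the 34 genes, grouped by role, in 12 comparisons, the group named first minus the group named second, with a dot where the adjusted p was under 0.05. The columns for OP9-GFP against medium hold 25 and 16 rises, the ICN column holds 13 falls, and LYAR is low in all 5 columns for dox.

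Over the 10 groups the members spanned a wider range than most genes. The median range of group means was 0.63 for the 34 members, against 0.40 for all genes and 0.45 for genes with a mean of 8 or more. LYAR (1.57), PUS7 (1.30) and ODC1 (1.14) had the widest ranges, with a spread within groups of 0.07, 0.06 and 0.04 (pooled SD), and FBL the narrowest, at 0.20. The lowest group mean of 16 members was that of the ICN line with dox, and that of 12 members was the MEF2C line in medium without dox. The highest was on OP9-DL1 with dox for 12 members, on OP9-DL1 without dox for 8 and on OP9-GFP without dox for 6.

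The median deviation of the members from their own means over all arrays ran from -0.24 to -0.20 in the ICN line with dox and from -0.06 to -0.03 in it without. In the MEF2C and ICN line it ran from -0.05 to 0.01 with dox and from -0.07 to -0.02 without, ranges that overlap. In the MEF2C line it was 0.14 to 0.24 with dox and 0.18 to 0.21 without on OP9-DL1, 0.06 to 0.10 with dox and 0.13 to 0.16 without on OP9-GFP, and -0.16 to -0.07 with dox and -0.27 to -0.18 without in medium. The same value over all genes stayed between -0.05 and 0.04 on every array.

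**Figure D5:**
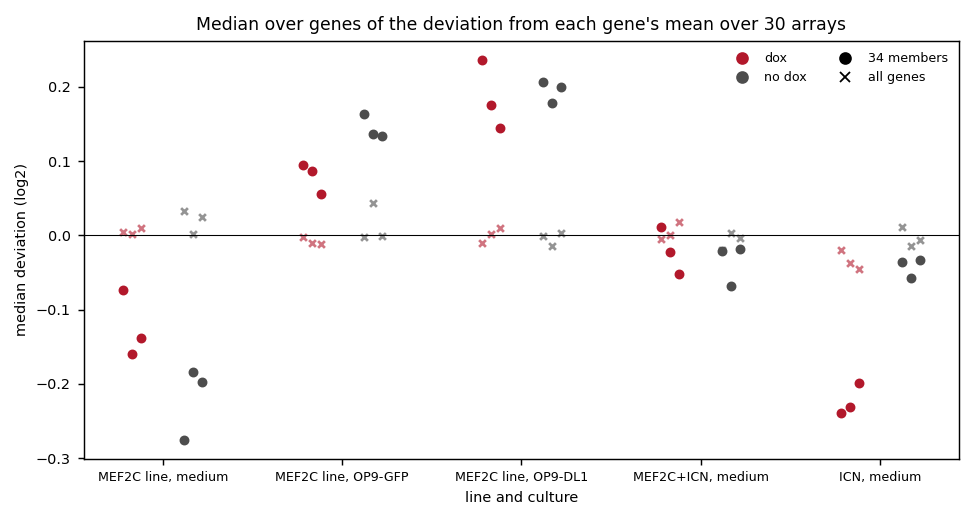
Median over the 34 genes of the deviation from each gene's mean over 30 arrays (dots), and the same over all genes (crosses), by line and culture, with dox in red and without in grey. All 12 arrays on stroma lie above 0 for the 34 genes, and the ICN arrays with dox lie between -0.24 and -0.20.

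The genes whose group means were most like those of MYC were POLR1B (Pearson r = 0.67 over 10 group means), NIP7 (0.64), RRP12 (0.56), GRWD1 (0.55) and RRS1 (0.55). The least like were CAD (-0.42), MAX (-0.26), MXD1 (-0.11), FBL (-0.05) and IMPDH2 (0.07). MYC lay near the floor of the scale in every group, with a range of group means of 0.35 and a pooled SD of 0.16. The 10 means share the normalization, and these are descriptions without a test. On OP9-GFP without dox 7 of the 11 probe sets that list an unmeasured member among several symbols rose and 0 fell. Of all 54613 probe sets 5010 rose and 4804 fell there. With ICN 6 of the 11 fell and 0 rose, against 3694 and 3105 of all probe sets. The 11 list MXD4, NOP56, DKC1, BOP1 or PPAN, with up to 3 for a gene, so they are not independent.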

How the data were processed

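The authors deposited log2 values computed by RMA, which subtracts background, equalises the distributions of the arrays and summarises probes per set. R 3.6.3 and affy 1.64.0 are named in the processing notes of the submitters. A difference in the total RNA of the cells is lost in that step. An array has no read depth, and the number of arrays, 3 per group, limits the precision. All 54675 probe sets had values, with 0 missing, and 0 columns belonged to no sample. The 62 control probe sets were left out. Of the other 54613, 41091 carry 1 gene symbol in the platform annotation, 1801 several and 11721 are not listed. Probe sets with several symbols gave no gene a value.

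limma 3.58.1 in R 4.3.3 was fitted as 1 model over 30 arrays and 10 groups, with Benjamini-Hochberg adjustment over 54613 probe sets and a threshold of 0.05. MEF2C over 3 cultures was tested with 9 arrays with dox against 9 without, the comparison in the study's methods, which name no covariate. Genes named are MYC, MAX and MXD1, in each comparison up to 5 members per direction with the largest change among those called, the 10 others with the widest range of group means for values by array, and of each list up to 3 genes per direction. Other members named were chosen after their values were seen. The members, the lists and the tests were chosen with earlier results of these data known. In simulated data for ICN induction, among 54613 probe sets, 50 of 100 changes of 0.3 and 96 of 100 changes of 0.6 (log2) were recovered, with 7 false calls. In the real arrays ICN induction had 3105 probe sets called higher and 3694 lower, far more than were changed in the simulation. The adjusted threshold therefore falls at another p-value, and these rates cannot be carried over to the real arrays. Recovery was not split by brightness, so it says nothing about dim genes such as MYC. Alternatives were a filter on dim probe sets (mean under 5), quantile normalization, median centring, a trended and robust prior, the methods' thresholds and t-test, averaged probe sets, only the arrays compared, a culture covariate, a replicate block, and leaving out arrays, replicate numbers or cultures. Motifs were searched in RefSeq promoter windows with Python 3.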

Additional observations from a re-analysis of the deposited data

Results flagged for a closer look

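The difference in the effect of dox between the MEF2C and ICN line and the ICN line passed the test for 8 members and for MYCN. It was 1.58 for MYCN, 0.53 for ODC1, 0.47 for PUS7, 0.44 for SRM, 0.35 for IMPDH2, 0.32 for RRS1, 0.31 for NOLC1, 0.29 for WDR12 and 0.28 for NOP16 on the log2 scale. The effect of dox was higher in the MEF2C and ICN line for all of them, but MYCN and PUS7 still fell with dox in that line.

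Between the MEF2C and ICN line and the MEF2C line in medium, the effect of dox differed by 0.41 for MAX, -0.83 for MYCN, -0.59 for LYAR, -0.50 for PUS7, -0.37 for NOC3L, -0.29 for NOP16 and -0.27 for ODC1.

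The effect of MEF2C on MYCN on OP9-GFP minus that in medium was -0.56, and 0 members passed the same test.

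Among 68 sets of 9 arrays with or without dox, 2 held an array far from the others by Dixon's test, and chance gives about 1 in 20. FBL had 11.10 in replicate 1 of the MEF2C line in medium with dox, where the next array of this line with dox had 11.02. GRWD1 had 6.78 in replicate 1 of the MEF2C line in medium without dox, where the next array of this line without dox had 7.09.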

How the results depend on the processing

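Of 128 calls on named genes all kept direction and side of the threshold with dim probe sets (mean under 5) left out, with a trended and robust prior and with a replicate block. Quantile normalization lost 7, median centring 14, the methods' thresholds 114, averaging a gene's probe sets 24, and the fit on only the arrays compared 56 of 127. Averaging probe sets turned TFB2M in the ICN line against the MEF2C line to -0.0251 and WDR12 in the MEF2C and ICN line against the MEF2C line to 0.0114. The causes were not tested, beyond the fewer arrays and the larger change that these settings ask for. The study's number of arrays limits what small differences can be called.

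With dim probe sets left out MEF2C in medium raised 5 members, MEF2C on OP9-DL1 lowered 2, MEF2C over 3 cultures lowered 2, MEF2C and ICN raised 3, OP9-DL1 against OP9-GFP without dox had 2 higher, the MEF2C and ICN line against the ICN line 4 higher, and the effect of dox in the MEF2C and ICN line minus the ICN line 13 higher. Quantile normalization gave 3 raised by MEF2C and ICN, 2 lowered by MEF2C over 3 cultures, and medians of 0.15 for the ICN line against the MEF2C line, -0.0111 for the effect of dox in the MEF2C and ICN line minus the MEF2C line and 0.28 for that minus the ICN line. Median centring gave 0 lowered by MEF2C in medium, 1 higher in the MEF2C and ICN line against the ICN line, 4 higher in the MEF2C and ICN minus ICN effect, and medians of -0.16 for the MEF2C effect on OP9-GFP minus medium and -0.0907 for MEF2C and ICN minus MEF2C. The trended prior gave 2 raised by MEF2C and ICN, 1 higher on OP9-DL1 against OP9-GFP in each state of dox, and 13 in the MEF2C and ICN minus ICN effect.

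At the methods' thresholds 0 members passed for MEF2C in any culture or over all 3, for the differences of dox effects, for the MEF2C and ICN line against either line, and among genes raised by ICN or by MEF2C and ICN. ICN lowered 3, MEF2C and ICN lowered 1, OP9-GFP raised 3 with dox and 6 without and lowered 0, and the ICN line against the MEF2C line had 0 higher and 1 lower. Averaged probe sets gave 1 raised and 1 lowered by MEF2C on OP9-GFP, 2 lowered over 3 cultures, 3 raised by MEF2C and ICN, 1 higher on OP9-DL1 without dox, 4 higher in the MEF2C and ICN line against the ICN line, 0 higher in the MEF2C and ICN minus MEF2C effect, and medians of -0.13 for ICN, 0.30 for OP9-GFP without dox, 0.14 for the ICN line against the MEF2C line, -0.0783 for the MEF2C effect on OP9-GFP minus medium and 0.15 for MEF2C and ICN minus ICN.

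With only the arrays compared MEF2C changed 0 members in medium and lowered 0 on OP9-GFP, ICN raised 1 and lowered 6, OP9-GFP raised 11 and lowered 0 without dox and lowered 1 with dox, the ICN line against the MEF2C line had 10 higher and 1 lower, the MEF2C and ICN line against the ICN line 0 higher and 1 lower, and the effect of dox in the MEF2C and ICN line had 3 lower minus the MEF2C line and 4 higher minus the ICN line. With culture as a covariate MEF2C over 3 cultures raised 2 and lowered 2, and without the arrays in medium it lowered 2. The main model did not pair arrays by replicate number, since in none of 12 comparisons did all 3 same-numbered pairs correlate above 0.1. With 3 arrays a group this cannot exclude pairing. The replicate block moved 1 count past 1.5 times, to 2 raised by MEF2C and ICN.

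Leaving out 1 array gave 1 to 4 raised and 0 to 1 lowered by MEF2C in medium (median 0.029 to 0.1055), 1 to 3 lowered by it on OP9-GFP, 1 to 2 raised and 9 to 12 lowered by ICN, 22 to 25 raised and 0 to 1 lowered on OP9-GFP without dox, and 12 to 19 raised and 1 to 2 lowered with dox. It gave medians of 0.17 to 0.21 for the ICN line and 0.12 to 0.22 for the MEF2C and ICN line against the MEF2C line, with 14 to 18 higher and 2 to 3 lower in the second, 1 to 2 higher and 0 to 2 lower in the MEF2C and ICN line against the ICN line, and 5 to 9 higher in the MEF2C and ICN minus ICN effect.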
